A study of Mus musculus with 4 samples.

Results

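The Elf group of ETS transcription factors was examined in mouse collecting duct cells through the chromatin around its genes. The 7 members were taken by name: Elf3, Elf5, Ehf and Spdef, whose use is largely epithelial, and Elf1, Elf2 and Elf4, which are used more broadly. They are 7 of 21887 protein-coding genes placed on chromosomes 1 to 19, X and Y, and 334 of the 560228 merged accessible regions of the series lay in or within 50 kb of their gene bodies. No region was counted for more than 1 member. The cells were mpkCCD (clone 11), 1 clone of an immortalised mouse line, kept in medium with 50 nM dexamethasone and used at passages 8 to 10, grown to confluence on permeable supports and then moved to medium free of serum and hormones. They received 0.1 nM dDAVP, an analog of vasopressin selective for its V2 receptor, or vehicle alone for 30 minutes, and chromatin accessibility was measured by ATAC-seq, which uses a transposase to tag open DNA, in 2 libraries per treatment of 50000 cells each. Whether the 2 libraries of each treatment are from independent cultures is not stated, so p-values measure only the spread between these libraries, which may be technical. The values are the positions and widths of called peaks on mm10, with no read depth, so the absence of a peak means only that none was called there, and a site open in few cells cannot be told apart from a site little open in all.

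The lists held from 205771 peaks (dDAVP replicate 2) to 393956 (vehicle replicate 1), covering 73.6 to 133 Mb, with median widths of 233 to 246 bp. A peak within 1 kb of a gene end was present in all 4 libraries at 5 of 8 principal cell markers, with Aqp3, Avpr2 and Scnn1b short of 4 libraries, and at 4 of 4 epithelial markers. The same was found at 3 of 4 intercalated cell markers, at 1 of 3 proximal tubule markers and at 1 of 3 markers each for leukocytes, endothelium and stroma (Cd68, Kdr and Col1a1). Ptprc and Col3a1 had no such peak in any library. Over all protein-coding genes the share with such a peak in all 4 libraries was 65.0%, so the principal cell markers were close to the background.

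ETS proteins share a winged-helix DNA-binding domain that reads a GGAA core, and the bases beside the core set much of the preference within the family. Elf3, Elf5, Ehf and Spdef are known for roles in epithelial differentiation: Elf3 in gut and skin, Elf5 in the mammary gland and in the principal cells of the kidney collecting duct, Ehf in airway, skin and glands, and Spdef in secretory cells of airway and gut. Elf1, Elf2 and Elf4 are close relatives of one another that are best known from blood cells and are active in many other tissues.

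The annotated starts are shown first, since some were held by a peak in every library and others in none or few. RefSeq gives a start and its sequence for 6 of the 7 members, 10 starts in all, and Ehf has no entry there. The sequences below are the 200 bases before a start, 5′ to 3′ on the gene's strand, with GGAA and its reverse complement TTCC in capitals. They were chosen to set the start of Elf3, Elf5 and Elf2, each held by a peak in every library, beside that of Spdef, held by none, and the outer start of Elf4 beside its inner one. Elf3 is at chr1:135258473-135258672 (minus strand), Elf5 (outer start) at chr2:103411898-103412097 (plus), Spdef at chr17:27728952-27729151 (minus), Elf2 (outer start) at chr3:51340645-51340844 (minus), and the outer and inner starts of Elf4 at chrX:48463133-48463332 and chrX:48454320-48454519 (minus).
Elf3: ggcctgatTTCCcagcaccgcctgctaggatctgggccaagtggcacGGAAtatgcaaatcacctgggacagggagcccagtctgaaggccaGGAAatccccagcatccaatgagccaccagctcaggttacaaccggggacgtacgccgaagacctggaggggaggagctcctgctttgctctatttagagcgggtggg
Elf5 outer start: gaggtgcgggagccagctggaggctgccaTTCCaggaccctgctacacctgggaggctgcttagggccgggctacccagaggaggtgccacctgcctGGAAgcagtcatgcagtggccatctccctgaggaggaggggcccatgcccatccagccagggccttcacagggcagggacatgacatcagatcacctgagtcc
Spdef: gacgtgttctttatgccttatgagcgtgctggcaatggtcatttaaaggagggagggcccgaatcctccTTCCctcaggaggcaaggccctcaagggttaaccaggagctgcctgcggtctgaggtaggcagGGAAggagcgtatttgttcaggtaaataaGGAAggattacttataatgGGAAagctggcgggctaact
Elf2 outer start: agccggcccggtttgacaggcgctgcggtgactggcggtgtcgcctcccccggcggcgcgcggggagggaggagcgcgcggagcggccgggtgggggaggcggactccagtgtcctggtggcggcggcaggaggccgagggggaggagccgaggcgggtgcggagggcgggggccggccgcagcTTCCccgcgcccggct
Elf4 outer start: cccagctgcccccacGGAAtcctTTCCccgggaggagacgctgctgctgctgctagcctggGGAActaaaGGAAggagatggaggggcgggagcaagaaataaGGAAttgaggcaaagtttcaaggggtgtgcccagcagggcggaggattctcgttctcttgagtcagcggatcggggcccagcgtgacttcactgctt
Elf4 inner start: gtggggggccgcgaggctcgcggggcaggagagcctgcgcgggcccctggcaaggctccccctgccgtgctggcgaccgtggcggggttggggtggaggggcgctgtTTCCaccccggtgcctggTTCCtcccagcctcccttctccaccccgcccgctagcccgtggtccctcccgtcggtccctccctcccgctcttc
These stretches hold 3 ETS cores for Elf3, 2 for Elf5, 4 for Spdef, 1 for Elf2, 5 for the outer and 2 for the inner start of Elf4. Of the starts not shown, the inner start of Elf2 holds 5 and the outer and inner starts of Elf1 hold 2 and 0. Each of these has a peak in every library. The inner start of Elf5 holds 1. Which starts are shown thus affects how cores and peaks appear to go together, and no relation between them was tested.

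A peak over the annotated start was present in all 4 libraries at 7 of the 10 starts, with 41.6% of all 32851 promoters as the background. Each promoter window ran from 250 bases before to 50 bases after a start. By gene, 5 of the 6 members with an entry had at least 1 start held in all 4 libraries, against 57.4% of the protein-coding genes with an entry. Of the epithelial starts 2 of 4 were held throughout, and of the broadly used starts 5 of 6. Peak widths below are given in the order vehicle replicate 1, dDAVP replicate 1, vehicle replicate 2 and dDAVP replicate 2, followed by the mean and SD over the 4 libraries.

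At the start of Elf3 the peaks were 1224, 1176, 1120 and 1143 bp wide (1166 ± 45.1 bp, n = 4). All libraries were nearly alike here: the coefficient of variation of the peak length in this region (chr1:135258170-135259405) was 3.87%, where the median over the 88231 regions held by all libraries was 32.8%. The outer start of Elf5 had peaks of 942, 698, 482 and 747 bp (717 ± 189 bp, n = 4). At its inner start, 12.0 kb into the gene, a peak reached the promoter window in both replicate 2 libraries only, with 121 and 955 bp. The region that begins in that window, chr2:103424085-103425039, was nevertheless held by all libraries, with 706, 102, 114 and 955 bp of peak, and in 3 of them its peak began past the edge of the window.

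No peak lay over the annotated start of Spdef, at 27728951 on chromosome 17, in any library. The RefSeq gene body reaches further, to 27731003, and no peak lay within 1 kb of that end either. The nearest region, at chr17:27728180-27728865, ended 86 bp inside the transcribed side of that start and held peaks of 664 bp in vehicle replicate 1 and 376 bp in dDAVP replicate 1 only. The nearest region on the other side, at chr17:27732318-27732408, was 3367 bp away and was held by vehicle replicate 1 alone. The region of Spdef held by all libraries inside the gene (chr17:27716823-27718354) lay near the far end of the gene body, centred 3.14 kb from it, with 1525, 935, 809 and 335 bp of peak. It varied more than any start peak of Elf3, Elf1 or Elf2, from the longest in vehicle replicate 1 to the shortest in dDAVP replicate 2. Its coefficient of variation was 54.3%, below the 91.5% of the region at the inner start of Elf5.

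Among the broadly used members, the outer start of Elf2 had the widest promoter peaks of the group, 2123, 2032, 2226 and 2194 bp (2144 ± 86.0 bp, n = 4). Its inner start had 1809, 1806, 1676 and 1777 bp (1767 ± 62.4 bp). At both starts of Elf2 the widths varied little between the libraries. Elf1 had 1539, 1541, 1776 and 1683 bp at its outer start (1635 ± 116 bp), in a region that also covers the promoter of the neighbouring gene Wbp4, and 455, 445, 962 and 643 bp at its inner start (626 ± 242 bp). Elf4, on X, differed from both: at its outer start only vehicle replicate 2 had a peak reaching the promoter window, by 23 bases, although the region just inside it, chrX:48462778-48463105, was held by all libraries with 233, 148, 224 and 159 bp. Its inner start had peaks of 2055, 1493, 1586 and 1136 bp (1568 ± 378 bp, n = 4).

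**Figure D1:**
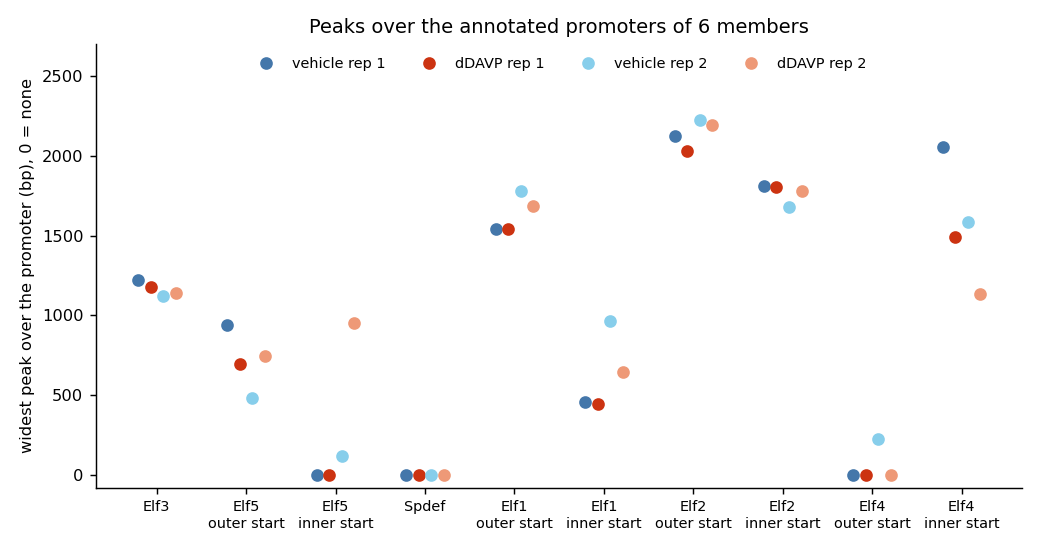
Width of the widest peak (bp, vertical axis) overlapping the promoter window of each annotated start of the 6 members with a RefSeq entry, 1 point per library (blue vehicle, red dDAVP). The points of Elf3, both starts of Elf2 and the outer start of Elf1 lie close together, Spdef has none above 0, and the inner start of Elf4 is covered while its outer start is not in 3 libraries.

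The starts also differed in base composition. The ratio of observed to expected CpG pairs in the promoter window was 1.08 for the outer start of Elf1, 0.998 and 0.923 for the outer and inner starts of Elf2 and 0.530 and 0.692 for those of Elf4. It was 0.460 for Elf3, 0.110 and 0.442 for the outer and inner starts of Elf5 and 0.329 for Spdef, with a median of 0.384 over all promoters. Split into 4 equal classes by this ratio, 6.34% of the promoters in the lowest class and 90.1% in the highest held a peak in every library. The outer start of Elf5 and the inner start of Elf1 (0.202) had a peak in all libraries with a ratio below that median, and the outer start of Elf4, reached by a peak in 1 library, had a ratio above it. The part of base composition in the peaks was not tested.

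Exact motif matches were counted on both strands of the 10 promoter windows. The GGAA core was present in 10 of 10, and in 96.0% of all promoters. The longer ETS form AGGAAGT, which contains that core, was present at Spdef and at the inner start of Elf2 (9.35% of all promoters), and CCGGAAGT was found at none (3.89% of all). The cAMP response element TGACGTCA was found at none (1.79% of all), and its shorter form TGACG, which the full element contains, at Spdef and the inner start of Elf5 (20.8% of all). The AP-1 form TGANTCA was present at 3 of 10 (7.81% of all), the GC box GGGCGG at 5 of 10 (35.7%), CCAAT at 2 of 10 (37.4%) and TATAAA at 3 of 10 (13.6%). All GC boxes lay at starts of Elf1, Elf2 and Elf4. These counts describe letters in the windows and not binding.

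Counting both annotated ends of each gene, 6 of the 7 members had a peak within 1 kb of an end in all 4 libraries, with 65.0% of all protein-coding genes as the background. Ehf, for which no start was given, had a region at its higher-coordinate end, chr2:103302510-103304119, with peaks of 1200, 1485, 1596 and 1438 bp. The exception was Spdef, whose region at the lower-coordinate end (chr17:27713977-27714645) was held by both replicate 1 libraries only. With 2.5 kb around the ends, Spdef also had a peak in all 4 libraries. The shared region reached was chr17:27716823-27718354, described above, inside the gene near the lower-coordinate end and not near the annotated start.

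Of the 334 regions of the members, 78 were held by all 4 libraries (23.4%, background 15.7%) and 160 by 1 library (47.9%, background 53.1%). The regions held by all libraries had a median width of 794 bp against 770 bp over the series, and those held by 1 library 155 bp against 153 bp. Of the 78 regions, 8 were at an end of the member itself, 9 at an end of another gene, 23 elsewhere inside the member, 15 inside another gene and 23 between genes. In the 5 kb just inside the 50 kb limit there were 6 regions held by all libraries, and in the 5 kb just outside it there were also 6.

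**Figure D2:**
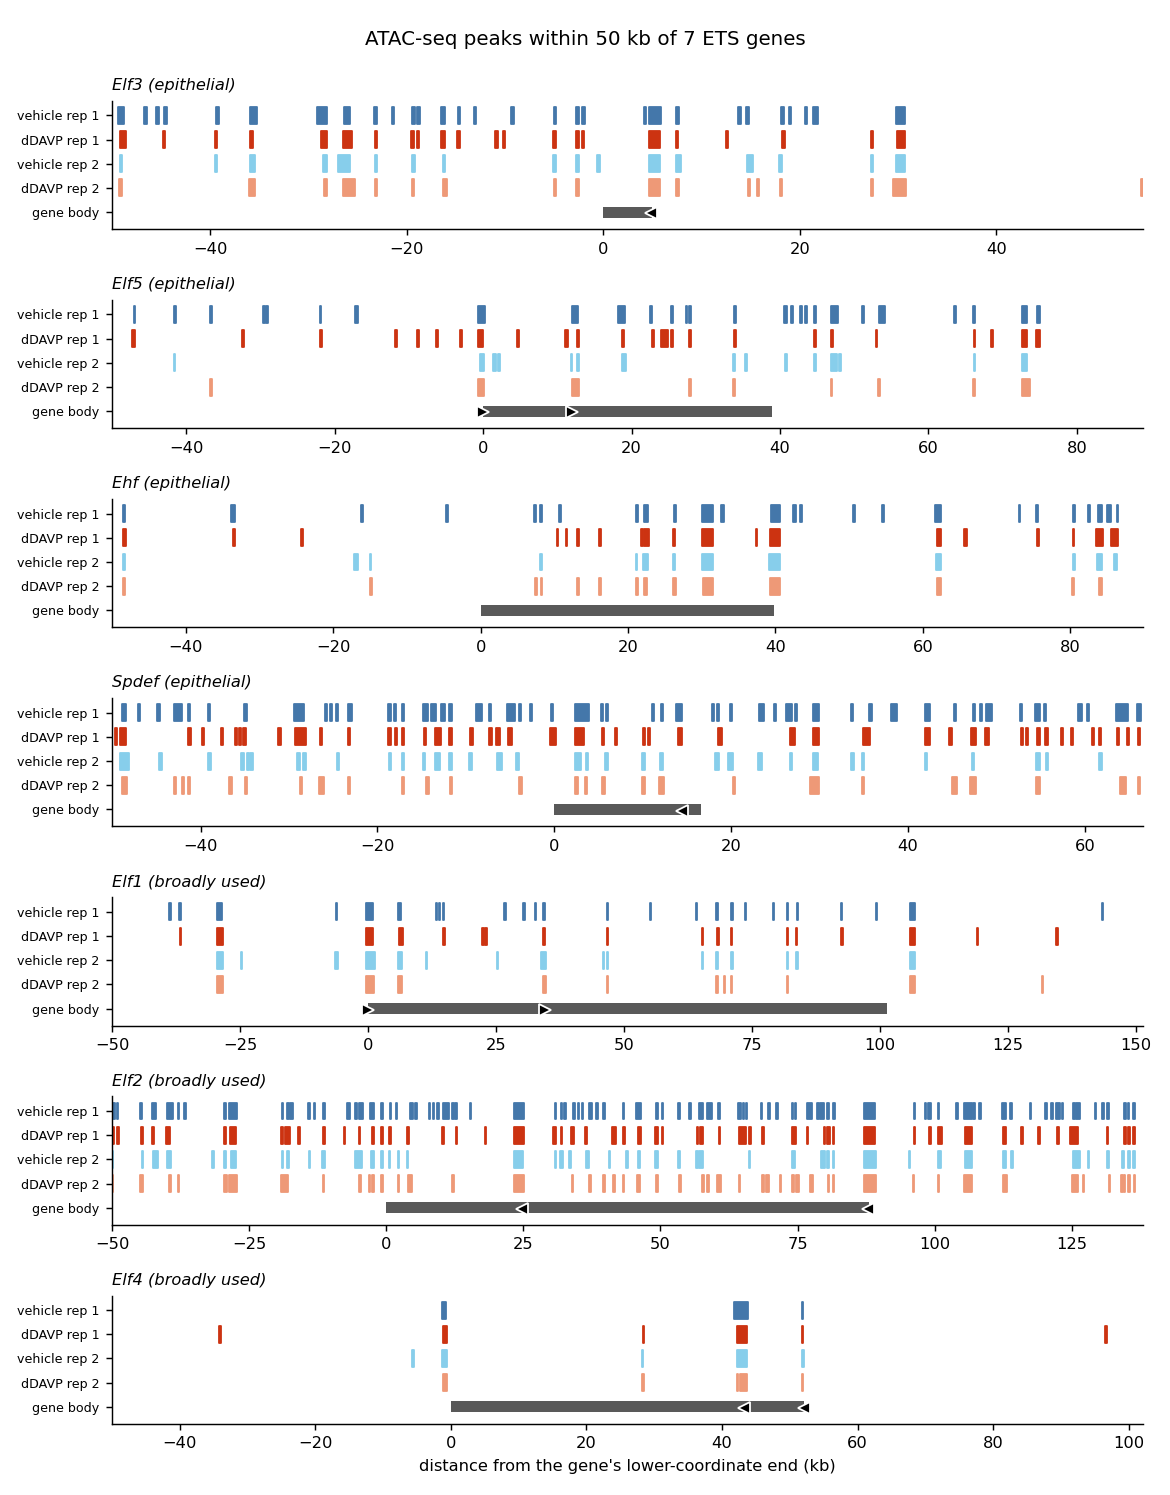
Each bar is a called peak, placed by its distance in kb from the lower-coordinate end of the gene (horizontal axis), in 1 row per library, with the gene body in grey and the annotated starts as arrowheads in the direction of transcription (none given for Ehf). Peaks narrower than 0.25 kb are drawn at that width. Elf3 has most of its shared peaks to the left of a short gene, Elf4 has few peaks at all, and the start of Spdef has none over it.

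Elf3, a gene of 4.90 kb at chr1:135253574-135258472, had 36 regions in its window, 13 of them in all libraries. Of these, 9 lay past the far end of the gene from its start, 10 lay between genes, and 1 each lay at its start, at the start of Rnpep and inside Rnpep. The widest was chr1:135226585-135228300, centred 26.1 kb from the nearest end of Elf3, with 674, 915, 1218 and 1239 bp of peak, longer in both replicate 2 libraries. The region at the start of Rnpep, chr1:135283070-135284388, had 942, 820, 977 and 1319 bp. At 12.4 regions per 100 kb of window Elf3 stood above 88.0% of all genes and above 96.0% of the genes on chromosome 1.

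Ehf (chr2:103263431-103303275) had 36 regions and 8 in all libraries, 5.72 per 100 kb. No other protein-coding gene reached into its window. Beside the region at its end, the widest was chr2:103293428-103294938, inside the gene and 9.09 kb from that end, with 1474, 1475, 1454 and 1247 bp of peak. The length of peak in this intragenic region varied little between libraries, with a coefficient of variation of 7.84%, against 11.7% in the region at the gene end. Another wide region lay between genes at chr2:103346936-103347856, with 516, 921, 766 and 469 bp, and there the dDAVP libraries held both the longest and the shortest value.

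Elf5 (chr2:103412098-103450989) had 43 regions but 6 in all libraries, 4.32 per 100 kb, close to the median of its chromosome (4.37). Other than its outer start the widest was the promoter region of the neighbouring catalase gene Cat, chr2:103484655-103485768, with 713, 735, 733 and 1103 bp. The next widest, chr2:103458909-103459977, lay inside Cat, 8.45 kb from Elf5, and is described with the treatment. Of its 43 regions, 26 were held by 1 library, the highest share among the 7 members.

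Spdef (chr17:27714446-27731003) had 74 regions, 11 of them in all libraries, 9.44 per 100 kb. A further 34 were held by 2 or 3 libraries, the most of any member. Of the 11 regions, 8 lay inside a neighbouring gene (Pacsin1 or Ilrun) and 1 in Spdef itself. The widest outside the gene was chr17:27684966-27686427, over an annotated start of Pacsin1, with 1150, 1283, 662 and 144 bp of peak. Most of the shared regions in the window of Spdef thus lay in its neighbours.

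Elf2 (chr3:51252720-51340683) had the most regions of the members, 101, with 28 of them in all libraries and 14.9 per 100 kb, above 95.1% of all genes and 93.0% of those on chromosome 3. Of the 28, 10 lay inside Elf2, 2 at its ends, 4 at ends of the neighbours Noct and Mgarp, 4 inside Noct and 8 between protein-coding genes. The widest beside its starts was chr3:51377442-51379174, 37.6 kb from the gene, over an annotated start of Gm5103, with 853, 1347, 1219 and 1079 bp. Elf1 (chr14:79481174-79582491) had 37 regions and 9 in all libraries over a longer window, 4.47 per 100 kb. Beside its starts the widest were the regions at Kbtbd6 (chr14:79451685-79452806) with 943, 1083, 1062 and 1121 bp and at Sugt1 (chr14:79587004-79588063) with 1036, 1060, 994 and 1025 bp, so the widest regions around Elf1 belonged to gene ends.

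Elf4 (chrX:48411049-48463132) had 7 regions, 3 of them in all libraries, 1.97 per 100 kb. The median on X was 0.867 and the median of all genes 4.66, so Elf4 was below most genes of the genome and above 80.8% of those on its own chromosome. Of its 3 shared regions, 1 covered the inner start (chrX:48452884-48454938), 1 narrow region lay just inside the outer start, and the third, chrX:48409707-48410403 with 660, 465, 695 and 457 bp, lay 0.994 kb past the other end of the gene. Around Elf4, Elf1 and Elf5 no region held by all libraries lay between genes.

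**Figure D3:**
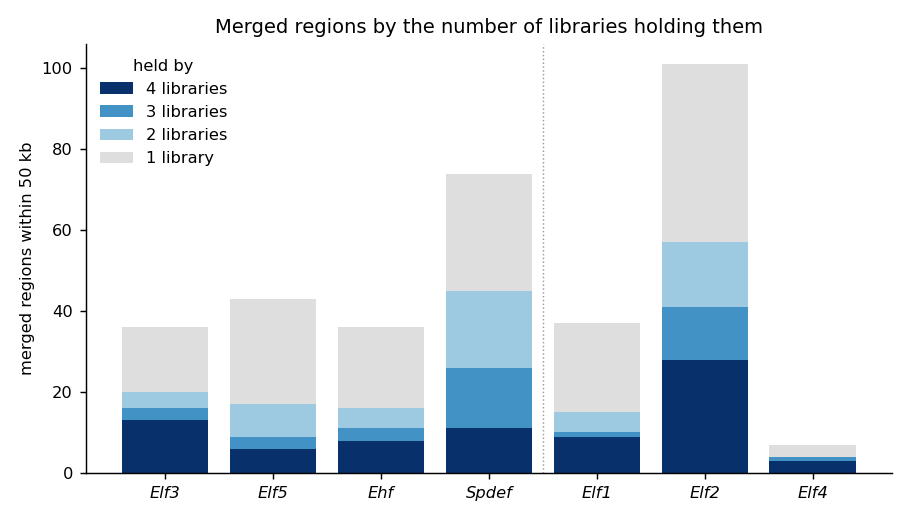
Number of merged regions within 50 kb of each member (vertical axis), stacked by how many of the 4 libraries hold them, with epithelial members left of the dotted line. Elf2 (101 regions) and Spdef (74) have the most and Elf4 (7) the fewest, and the dark segments, held by all libraries, run from 3 at Elf4 to 28 at Elf2.

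The epithelial and the broadly used members did not separate by the density of shared regions. The 4 epithelial members had 38 regions held by all libraries in 500.2 kb of window (7.60 per 100 kb), and the 3 broadly used members had 40 in 541 kb (7.39 per 100 kb). By gene the order was Elf2 (14.9), Elf3 (12.4), Spdef (9.44), Ehf (5.72), Elf1 (4.47), Elf5 (4.32) and Elf4 (1.97), so the groups interleaved. The broadly used value rested on Elf2: it was 3.40 without Elf2 and 9.50 without Elf4. With peaks at or above the median width of each library the order turned, to 3.20 against 4.06 per 100 kb, as it did with windows of 100 kb (6.78 against 7.49) and with equal numbers of widest peaks (5.40 against 6.10). Genes are not replicates of a class, and no test was made between the classes.

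Where the shared regions lay differed more. Outside all gene ends the epithelial members had 32 regions (6.40 per 100 kb) and the broadly used members 29 (5.36 per 100 kb). Only the outer ends of gene bodies count as gene ends, so regions at the inner starts of Elf5, Elf1, Elf2 and Elf4 are among these. By gene there were 11 at Elf3, 4 at Elf5, 7 at Ehf and 10 at Spdef. Elf1 had 6, Elf2 22 and Elf4 1. Of the epithelial regions 15 of 38 lay between genes and 6 inside the member, against 8 of 40 between genes and 17 inside the member for the broadly used group. The bodies of the broadly used genes are longer, 52.1 to 101 kb against 4.90 to 39.8 kb, so more of their windows is gene. All 8 regions between genes in the broadly used group were at Elf2, and 10 of the 15 in the epithelial group were at Elf3.

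The covered length per 100 kb in the epithelial windows was 9895 bp in vehicle replicate 1, 7714 in dDAVP replicate 1, 6000 in vehicle replicate 2 and 4994 in dDAVP replicate 2. In the broadly used windows it was 8600, 6438, 6109 and 5579 bp in the same order. The epithelial value was higher in both replicate 1 libraries and lower in both replicate 2 libraries. This sign rested on single genes. Without Elf4 the broadly used values were 11202, 8338, 7760 and 7242 bp, above the epithelial ones in every library. Without Elf2 they were 3133, 2555, 3231 and 2416 bp, below the epithelial ones in every library. The number of peaks per 100 kb was higher around the epithelial members in all 4 libraries, by 1.12 to 1.55 times. These rates also leaned on single genes. The ratio without them was not computed, so the order of the classes in peak number is not shown to hold without Elf4 or Elf2. Spdef had the most peaks of the epithelial members in every library, 54, 48, 34 and 26 in the same order. Among the broadly used members Elf2 had 87, 55, 46 and 48 peaks and Elf4 had 3, 6, 5 and 5.

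**Figure D4:**
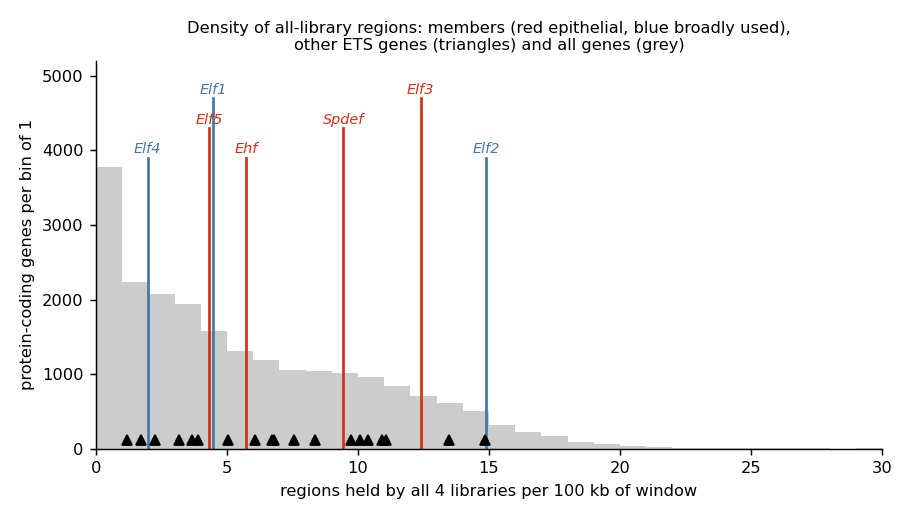
Histogram of the number of regions held by all 4 libraries per 100 kb of window (horizontal axis) over all protein-coding genes, with the members as lines (red epithelial, blue broadly used) and the other ETS genes as triangles. The axis ends at 30, beyond which lie 27 genes, and the red lines fall between the outermost blue lines, 1.97 at Elf4 and 14.9 at Elf2.

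The members differed in how much their coverage depended on the library. Vehicle replicate 1 covered 1.97 times as much around Elf5 and 1.96 times as much around Spdef as vehicle replicate 2, where the median of 20679 genes was 1.57. These 2 ratios were above those of 75.1% and 74.9% of genes. Around Elf1 and Elf4 the ratio was 0.950 and 1.03, lower than at all but 5.20% and 8.07% of genes. Between the dDAVP libraries the highest ratios were again those of Spdef (1.89) and Elf5 (1.72) and the lowest that of Elf1 (1.02), where the median gene had 1.23. They were above the ratios of 91.6%, 87.7% and 20.1% of genes. Elf4, at 1.19, was close to the median gene here. Read depth, which sets how many weak sites are called, is not known for these lists, and its part in these ratios was not tested.

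Treatment with dDAVP for 30 minutes gave no difference that was detectable at the members. Covered length within 50 kb of Elf3 was 9959 and 7427 bp in the vehicle libraries (replicates 1 and 2) and 7553 and 6937 bp in the dDAVP libraries. It was 9118 and 4629 against 6861 and 3982 bp around Elf5, 9459 and 7284 against 8833 and 5951 bp around Ehf, and 20957 and 10674 against 15338 and 8112 bp around Spdef. In each of these 4 genes the groups overlapped, and within each replicate number the dDAVP library was lower. Over the whole genome the dDAVP library had 291454 peaks against 393956 with vehicle in replicate 1. In replicate 2 the lists were nearly equal, 205771 against 206972. The part of list length in the member values was not tested.

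Around Elf2 the values were 35483 and 21657 bp with vehicle and 25824 and 21663 bp with dDAVP, again overlapping. Elf1 had 8125 and 8552 against 6634 and 6527 bp, and Elf4 had 2948 and 2865 against 2397 and 2011 bp. At these last genes both dDAVP libraries lay below both vehicle libraries, which was the case at 10.1% of all genes, with the reverse at 2.49%. For Elf1 and Elf4 the exact two-sided permutation p was 0.333, the smallest that 2 against 2 allows.

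After quantile normalization, which removes the overall difference in covered length, the log2 difference (dDAVP minus vehicle, of covered bp plus 100) was -0.25 ± 0.28 (SE) for Spdef, -0.23 ± 0.27 for Elf4, -0.13 ± 0.34 for Elf1, -0.10 ± 0.24 for Elf5, -0.03 ± 0.22 for Elf3, -0.01 ± 0.18 for Elf2 and 0.02 ± 0.23 for Ehf. None was larger than its standard error. By limma with Benjamini-Hochberg adjustment over 21397 genes the adjusted p was 1 for each member, no gene of the genome passed 0.05, and 392 genes (1.83%), no member among them, had an unadjusted p under 0.05. Leaving out 1 library turned the sign of every member's difference in at least 1 case, with ranges given in the closing section.

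**Figure D5:**
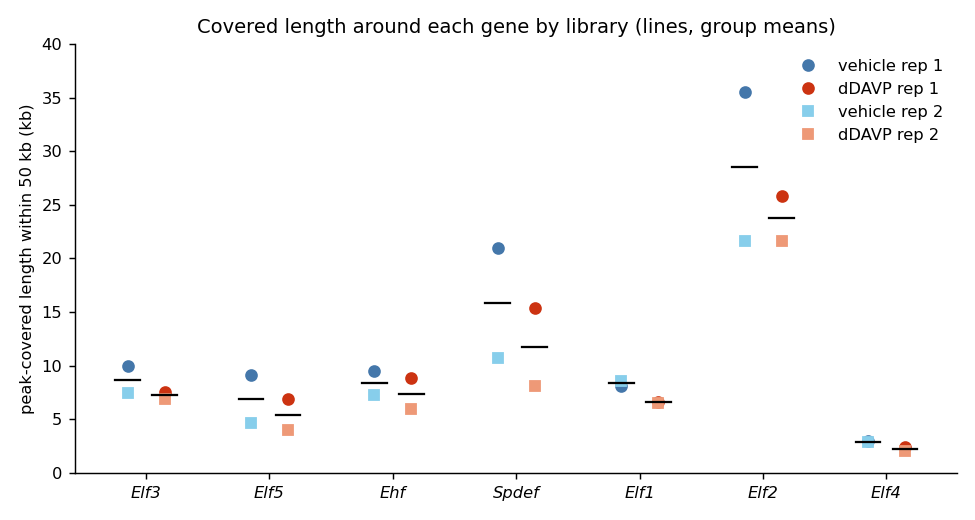
Peak-covered length within 50 kb of each member in kb (vertical axis), 1 point per library (circles replicate 1, squares replicate 2) with the group mean as a line. The groups overlap at Elf3, Elf5, Ehf, Spdef and Elf2, and the dDAVP points lie below the vehicle points at Elf1 and Elf4.

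Regions called in a single treatment took shares close to the background. Of the 334 regions, 4 (1.20%, background 1.61%) were called in both dDAVP libraries but in neither of the vehicle libraries, and 10 (2.99%, background 3.35%) had the reverse pattern. Of the patterns that cross the treatments, 9 regions were held only by vehicle replicate 1 and dDAVP replicate 2 and 6 only by the other crossed pair. A further 26 were held only by both replicate 1 libraries, which have the longest peak lists, and 2 only by both replicate 2 libraries. No background share is given for these patterns. The dDAVP-only and vehicle-only counts each moved by more than 1.5 times when a library was left out, and so did the background. Without vehicle replicate 1 the dDAVP-only count was 15 (5.88%, background 7.55%) and the vehicle-only count 31 (12.2%, background 13.9%). Without dDAVP replicate 1 they were 15 (5.05%, background 9.74%) and 26 (8.75%, background 8.74%). Leaving out vehicle replicate 2 gave 7 (2.21%, background 2.85%) and 99 (31.2%, background 32.7%), and leaving out dDAVP replicate 2 gave 48 (14.6%, background 15.8%) and 17 (5.18%, background 5.60%). The members' shares were below or close to the background in each case.

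The dDAVP-only regions were 2 inside Ehf, 1 inside Elf2 and 1 near Spdef. Those of Ehf were chr2:103276532-103276849, with 239 and 300 bp in dDAVP replicates 1 and 2, and chr2:103279514-103279703, with 161 and 76 bp. That of Elf2, chr3:51293876-51294557, had 682 and 144 bp, and that near Spdef, chr17:27687866-27688381, inside Pacsin1, had 181 and 516 bp. Of the 10 vehicle-only regions 6 were near Spdef, 2 near Elf5 and 1 each near Elf1 and Elf2. The widest was chr17:27737465-27738224, 6.84 kb from Spdef, with 583 and 474 bp in vehicle replicates 1 and 2, followed near Elf1 by chr14:79474631-79475271 with 140 and 641 bp. The vehicle-only regions of Elf5 were chr2:103452622-103453007 (386 and 106 bp) and chr2:103370392-103370686 (288 and 82 bp). The longest single peak in any of these regions was the 682 bp one inside Elf2.

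Peak length was also compared within the regions held by all 4 libraries. Of the 78 member regions, 8 were longer in both dDAVP libraries than in both vehicle libraries (background 12.9%) and 16 were shorter (background 17.5%). By limma over 88231 regions no region passed an adjusted p of 0.05, in the members or elsewhere, and 5 of the 78 had an unadjusted p under 0.05 (background 5.28%). The start regions gave a log2 difference of 0.03 ± 0.28 (SE) for Elf3, 0.14 ± 0.39 for Elf5, 0.13 ± 0.33 for the end region of Ehf, -0.00 ± 0.30 for Elf1, -0.01 ± 0.29 and 0.08 ± 0.28 for the outer and inner starts of Elf2, and -0.36 ± 0.31 for the inner start of Elf4.

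The largest difference among the 5 was at chr2:103458909-103459977, inside Cat and 8.45 kb from Elf5, with 943 and 895 bp in the vehicle libraries and 99 and 178 bp in the dDAVP libraries. Its log2 difference was -2.70 ± 0.45 (SE), with an unadjusted limma p of 0.00378 and an adjusted p of 0.870. The next was chr3:51247047-51248473, inside Noct near Elf2, with 1107 and 1312 bp against 193 and 348 bp (log2 difference -2.12 ± 0.47, adjusted p 0.870 by limma). The groups did not overlap at either site, and neither passed the adjustment. A second region inside Noct, chr3:51233551-51235139, had 538 and 616 bp with vehicle and 1092 and 1339 bp with dDAVP. Its log2 difference was 1.14 ± 0.35 (adjusted p 0.908 by limma), opposite in sign to that of the first and also short of the adjustment. The 5 also included chr17:27761517-27762135, inside Ilrun near Spdef (1.66 ± 0.59, adjusted p 0.945 by limma). The last was chr3:51384105-51384602, between genes near Elf2 (-1.04 ± 0.28, adjusted p 0.890 by limma). The regions in Noct were named after their values were seen.

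The other 19 ETS genes gave the setting of the family. Every library had a peak at a gene end for 15 of 19, against 6 of 7 members and 65.0% of all genes, and 9 of the 15 with a RefSeq start had one held in all 4 libraries. The exceptions at gene ends were Ets1, Fli1, Etv2 and Spic. Shared regions per 100 kb had a median of 6.80 for these genes, 5.72 for the members and 4.66 for all genes. Etv3 (14.8), which encodes a repressor, and Ets2 (13.5) had the most, and Etv6 (1.20), a repressor needed in blood formation, and Elk1 (1.71), a nuclear target of MAP kinases, had the fewest.

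Over the 4 libraries, the covered length per 100 kb of Etv2 and Spib lay nearest to the mean of the epithelial members, at Euclidean distances of 0.476 and 0.517 on the log2 scale. Etv2 is known from early endothelium and Spib from lymphoid cells, and their own start windows held no peak in any library. By limma none of the 19 passed for dDAVP, none had an unadjusted p under 0.05, and their log2 differences were positive for 10 and negative for 9, with a median of 0.02, where the median over all genes was 0.02 and over the members -0.10.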

How the data were processed

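The authors deposited 1 peak list per library, with chromosome, start and end and no score, summit or depth. The submitters' processing notes list MACS2, bedtools, Picard, SAMtools, Bowtie2 and cutadapt, with mm10 as the build. Tool versions, the peak threshold, the handling of duplicates and whether reads were shifted to the transposase cut site are not stated there; a looser threshold or deeper library gives more peaks. Peaks overlapping by 1 bp or more were merged (touching peaks kept apart), and regions overlapping a gene body extended by 50 kb were taken. Coordinates are 1-based. Gene bodies and promoter sequences came from RefSeq on GRCm38.p6, the assembly mm10 names; all 26 ETS genes matched. Covered length and peak length were compared with limma 3.58.1 (R 4.3.3) on the log2 scale after quantile normalization, for genes with a peak in the window and for regions held by all libraries, and covered length also with exact two-sided permutation tests (scipy 1.17.1). The steps were tested on simulated data. Of 200 simulated log2 changes of 0.5, 1 or 2, limma called 0, 149 and 200 for covered length. For peak length it called 0, 0 and 116. Every simulated gene or region was given the same spread, the median of the real ones, whereas real spreads differ. Real changes could therefore go uncalled also at sizes that were called in the simulation. Alternatives were other windows, overlaps, peak selections, normalizations, a pseudocount of 1000 bp, a replicate block and leaving out each library.

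The members and lists were chosen with earlier results of these data known. Named regions are the widest region held by all libraries at a member's ends, the next 2 elsewhere and up to 3 treatment-only regions per member; named other ETS genes are the 2 with most and fewest shared regions per 100 kb and the 2 nearest to the epithelial mean. The remaining genes and regions given were chosen after their values were seen.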

Additional observations from a re-analysis of the deposited data

How the results depend on the processing

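The number of member regions held by all libraries, 78, moved to 124 with windows of 100 kb and to 38 with only peaks at or above the median width of each library, was 54 with windows of 25 kb, 60 with equal numbers of widest peaks and 73 when an overlap of 50% of the shorter peak was required, and ranged from 80 to 94 without 1 library. The ratio of the epithelial to the broadly used density, 1.03, was 0.787 with peaks at or above the median width and 0.886 to 1.05 under the other settings with all libraries, and 1.03 to 1.19 without 1 library, so the order of the classes was not stable. The dDAVP-only count of 4 was 7 with equal numbers of widest peaks and 2 with peaks at or above the median width, and 7 to 48 without 1 library. The vehicle-only count of 10 was 20 with windows of 100 kb and 17 to 99 without 1 library. The cause of these shifts was not tested, except that a pattern over 3 libraries asks for less than one over 4 and that a longer window holds more regions. Gene-end peaks in all libraries were found at 6 members with windows of 0.5 kb and at 7 with 2.5 kb.

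By limma no gene or region passed an adjusted p of 0.05 in any of the alternatives run (11 for covered length, 8 for peak length), leaving out each library included, and the smallest adjusted p of a member was 0.848 for covered length and 0.767 for a region's peak length. Nothing in the labels ties equal replicate numbers to a shared culture, and the deviations of same-numbered libraries correlated at 0.41 for covered length and 0.10 for peak length. With the replicate number as a block, 0 genes and 0 regions passed, and 1039 genes and 4903 regions had an unadjusted p under 0.05, against 392 and 4655 without it. The log2 difference of Ehf was -0.19 without normalization and -0.0489 with windows of 100 kb, and that of Elf2 was 0.00608 with windows of 25 kb. Without normalization the median over all genes moved from 0.02 to -0.17. Without 1 library the differences ran from -0.21 to 0.14 for Elf3, -0.32 to 0.12 for Elf5, -0.18 to 0.21 for Ehf, -0.52 to 0.0259 for Spdef, -0.54 to 0.28 for Elf1, -0.0943 to 0.0669 for Elf2 and -0.53 to 0.0790 for Elf4. The sign turned for Elf5 and Ehf without vehicle replicate 1, for Elf3, Ehf, Elf1 and Elf2 without dDAVP replicate 1, for Elf3, Elf1, Elf2 and Elf4 without vehicle replicate 2, and for Elf5 and Spdef without dDAVP replicate 2. In those fits the lone library of a treatment is assumed to vary like the pair. No depth is known, so weak sites cannot be compared between libraries.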

Other observations

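Ehf and Elf5 are neighbours on chromosome 2, and the family holds 2 other neighbouring pairs within 200 kb, none with a protein-coding gene between them. In the 109 kb between Ehf and Elf5 there were 25 merged regions, 3 of them in all 4 libraries (2.76 per 100 kb), the widest 921 bp. Between Fli1 and Ets1, the pair on chromosome 9 that is best known from blood and endothelium, 92.8 kb held 24 regions, also 3 in all libraries (3.23 per 100 kb). The 116 kb between Erg and Ets2 on chromosome 16 held 72 regions, 16 of them in all libraries (13.8 per 100 kb), the widest 2423 bp, although no annotated start of Erg had a peak in all 4 libraries. The interval between Ehf and Elf5 was poorer in shared regions than that between Erg and Ets2. The chromosomes differ as well: the median over gene windows was 4.37 per 100 kb on chromosome 2, 8.25 on chromosome 16 and 3.78 on chromosome 9. The windows of Ehf and Elf5 held 5.72 and 4.32 per 100 kb. Those values count regions at gene ends and the windows overlap the interval, whereas the interval's count leaves out the shared regions at the facing ends of both genes. Outside all gene ends the windows held 5.01 per 100 kb for Ehf and 2.88 for Elf5, the latter close to the interval. The value for Elf5 includes the region at its inner start. These intervals were chosen after other values of the members were seen, and the difference between them was not tested.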
